A study of Mus musculus with 3 samples.

Results

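Interferon-stimulated genes are the genes that cells switch on when an interferon binds its receptor. A list of 46 genes, made of such genes and of parts of the pathway that controls them, was followed here through H3K36me3. The cells were mouse Treg cells, the regulatory T cells marked by Foxp3. The genes were chosen by name as known parts of the interferon response, with no measured value in the rule. Earlier results of these data were known when the list was made, so the shares below describe the list and no set was tested. The list joins the interferon receptors and interferon regulatory factors (IRFs) to the antiviral effectors they control. The name interferon-stimulated genes is used below for all 46, receptors and IRFs included. A gene was measured through the H3K36me3 peaks whose midpoint lay inside its annotated body. By this rule 43 of the 46 genes had at least 1 peak, and 42 reached 20 RPKM over both libraries, the level below which no ratio was counted. Over the whole genome 11946 genes had a peak by the same rule, and 10886 reached that level.

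The samples were 1 library of spleen Treg cells, 1 library of large intestine (LI) Treg cells and 1 input library of splenic Treg chromatin, which was not analysed here. All came from steady-state C57BL/6 mice of the Foxp3-YFP genotype (Foxp3Cre-YFP in the study's methods), in which Cre and the yellow fluorescent reporter are expressed from Foxp3, the lineage gene of Treg cells. No other allele and no treatment was given. The study's in vivo experiments used mice of 6 to 12 weeks as a rule, and no separate age was given for these cells. CD3+CD4+ reporter-positive cells of 14 mice, 7 of each sex, were pooled, and the same amount of chromatin from each tissue was precipitated with an antibody against H3K36me3. With 1 library per tissue there is no replicate check and no test: every ratio sets 1 library against another, and the intervals printed beside the ratios are approximate 95% counting intervals that cover counting error only. In pooled cells, the mark on fewer cells and less of the mark per cell cannot be told apart.

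Interferons signal through paired receptor chains and Jak kinases to STAT proteins and IRFs, which enter the nucleus and bind the promoters of these genes. Type I interferons act through Ifnar1 and Ifnar2 and mainly through the interferon-stimulated response element (ISRE), whereas interferon-gamma acts through Ifngr1 and Ifngr2 and the GAS element. H3K36me3 is a histone methylation laid down by Setd2 behind elongating RNA polymerase, so it lies over the bodies of transcribed genes rather than at their promoters.

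The ISRE is shown first because it is the sequence through which type I interferons mainly act, though not every gene of the list holds it. In the RefSeq promoter windows (GRCm38.p6, 250 bases before to 50 bases after each start), 37 of the 46 genes had an entry. Not in the table were Zbp1, Oas2, Usp18, Dhx58, Parp9, Parp14, Mx2, Mx1 and Gbp4. Below are 9 stretches upstream of the start, with the letters that match the ISRE core GAAANNGAA on either strand in capitals, written 5′ to 3′ on the strand of the gene. Isg15, Ifit1, Ifit3, Oas1a, Oas3, Ifih1, Gbp3, Gbp7 and Igtp were chosen to cover the main families.
Isg15 (chr4:156200866-156200906, minus strand): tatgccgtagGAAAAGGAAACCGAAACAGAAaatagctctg
Ifit1 (chr19:34640770-34640804, plus strand): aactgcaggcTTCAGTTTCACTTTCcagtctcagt
Ifit3 (chr19:34583364-34583392, plus strand): agtggtaagtTTCACTTTCctcttctggt
Oas1a (chr5:120907526-120907555, minus strand): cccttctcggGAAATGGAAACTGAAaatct
Oas3 (chr5:120777710-120777744, minus strand): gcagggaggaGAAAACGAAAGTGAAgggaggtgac
Ifih1 (chr2:62646349-62646377, minus strand): agaattcgcgTTCCCTTTCctgtttctca
Gbp3 (chr3:142559990-142560024, plus strand): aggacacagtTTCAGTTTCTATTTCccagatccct
Gbp7 (chr3:142530274-142530302, plus strand): tgtgtgcagtTTCAGTTTCagttctccat
Igtp (chr11:58199512-58199540, plus strand): tctaggaactGAAACTGAAagctgttcgg

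In Isg15 3 copies of the core ran into each other, and in Oas1a, Oas3, Ifit1 and Gbp3 the stretch shown holds 2 overlapping copies. The core was found in the promoter windows of 18 of 37 genes (48.6%), against 9.76% of the 27025 genes in the promoter table, and 2 or more copies stood in 11 of 37 (29.7%) against 0.736%. The GAS letters TTCNNNGAA, which read alike on both strands, were found in 14 of 37 (37.8%) against 9.55%. Both motifs stood in the windows of 7 genes (18.9%, against 1.42% of all genes). Of the 32 matches to the ISRE core, 1 overlapped a match to the GAS letters. A match is a description of the letters and not a bound site. H3K36me3 itself was rarely over these windows: a peak touched the promoter of 5 of the 37 genes (13.5%), namely Irf1, Irf9, Dtx3l, Samhd1 and Ifnar2, against 4.88% of all genes in the table.

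H3K36me3 was lower in the LI library than in the spleen library over most interferon-stimulated genes. The log2 ratio of LI over spleen, with each library scaled to its total over all peaks, was below 0 in 36 of the 42 genes (85.7%), and 49.3% of all genes tested were below 0. The median ratio of the 42 genes was -0.20, beside 0.0049 over all genes tested. The middle 50% of the 42 genes ran from -0.40 to -0.11, and that of all genes from -0.20 to 0.24. Scaled by the median of ratios instead, 36 of 42 were below 0, and on the values as deposited 34 of 42 were. Oas2, Oasl2, Ifit2 and Oasl1 were over 2-fold lower in LI, or 4 of 42, where 2.04% of all genes were, and 0 of 42 were over 2-fold higher, where 3.42% of all genes were. The counting interval lay below 0 in 20 of 42, against 15.2% of all genes, and above 0 in 2 of 42, Ifngr1 and Irf3, against 17.9% of all genes.

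The same direction was seen peak by peak, in the peaks that were summed for the gene ratios. The count is therefore not separate support, and genes with many peaks weigh most in it. Inside the 42 genes there were 415 pairs of a gene and a peak, and in 302 of them (72.8%) the scaled value was lower in LI, against 51.0% of all 120910 peaks. The merged set holds peaks called in either tissue, and the tissue in which a given peak was called is not in the table.

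**Figure D1:**
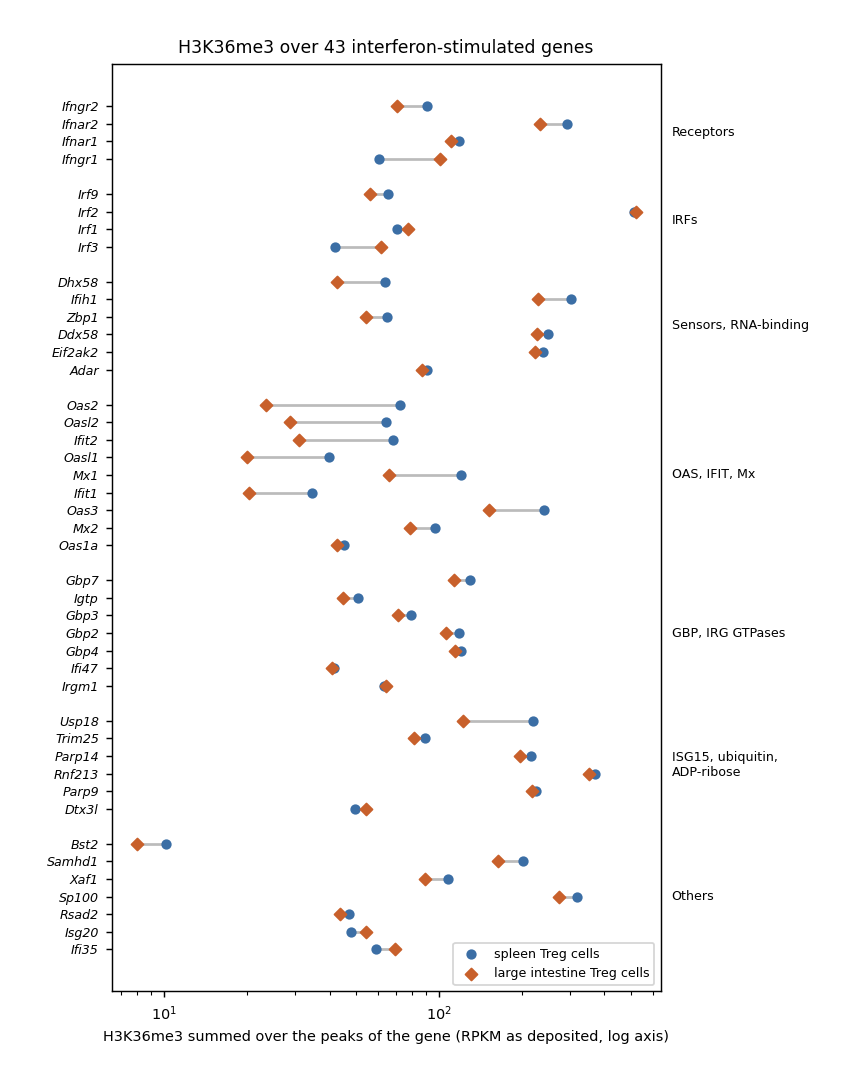
H3K36me3 summed over the peaks of each of the 43 interferon-stimulated genes with a peak, in RPKM as deposited on a log axis, with circles for spleen and diamonds for LI, grouped by role and with a line joining the values of a gene. The widest gaps, with LI lower, are in the OAS, IFIT and Mx group and at Usp18. Ifngr1, Irf3, Isg20, Irf1, Irf2, Dtx3l, Ifi35 and Irgm1 have the higher value in LI as deposited.

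**Figure D2:**
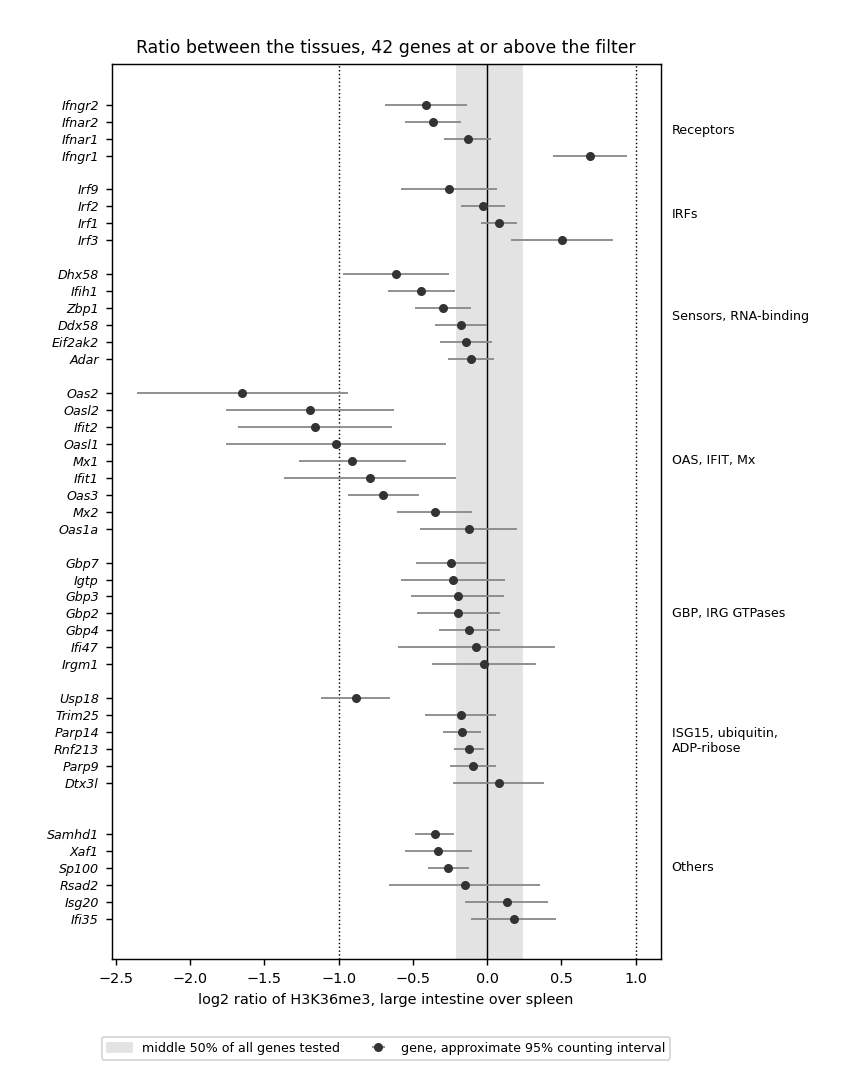
Log2 ratio of H3K36me3, LI over spleen, for the 42 genes at or above the filter, with bars for the approximate 95% counting interval, a grey band for the middle 50% of all 10886 genes tested and dotted lines at a 2-fold difference. The points of 36 genes lie left of 0, and Oas2, Oasl2, Ifit2 and Oasl1 lie past the left dotted line.

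Of the 4 receptor chains, 3 were lower in LI and Ifngr1 was higher. Ifngr1 (ENSMUSG00000020009.13, chr10:19591949-19610229, plus strand), the ligand-binding chain for interferon-gamma, summed to 60.3 RPKM in spleen against 100.9 RPKM in LI. This is a log2 ratio of 0.69 (0.44 to 0.94), with a higher LI value at 5 of 5 peaks. Its main peak, 9907 bp long and covering its downstream part, had a mean of 27.6 RPKM in spleen against 38.4 RPKM in LI, a log2 ratio of 0.42. The gene was marked almost throughout, with 94.1% of its body in peaks. Ifngr2 (ENSMUSG00000022965.8, chr16:91547072-91565623, plus strand), the signalling chain of the same receptor, went the other way, with 90.8 RPKM in spleen against 70.3 RPKM in LI and a log2 ratio of -0.41 (-0.69 to -0.14). All 6 of its peaks were lower in LI.

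The type I receptor was lower in LI in both chains, by different amounts. Ifnar2 (ENSMUSG00000022971.18, chr16:91372783-91405589, plus strand), the high-affinity chain and the receptor gene with the largest sum, had 292.2 RPKM in spleen against 234.0 RPKM in LI, a log2 ratio of -0.37 (-0.55 to -0.18). Of its 23 peaks 19 were lower in LI, and 8 of them also fall in the overlapping gene Gm21970, so the value may hold signal of both. For Ifnar1 the sums were 117.9 and 111.0 RPKM, and the interval of its ratio (-0.13) included 0.

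The IRFs, transcription factors that carry the signal to DNA, were evenly divided. Irf2 (ENSMUSG00000031627.9, chr8:46739732-46847458, plus strand), which competes with Irf1 for the same sites, had the largest sum in the group over 49 peaks, 513.5 RPKM in spleen against 519.7 RPKM in LI, and its log2 ratio was -0.028 (-0.18 to 0.12). Irf3 (ENSMUSG00000003184.15, chr7:44997648-45002848, plus strand), the factor that switches on interferon genes after viral sensing, had 41.8 RPKM in spleen against 61.4 RPKM in LI, a log2 ratio of 0.50 (0.16 to 0.85). That ratio came from its short peaks, and 1 of its 3 peaks also falls in the overlapping gene Bcl2l12. The 200-bp peak had 3.67 RPKM in spleen against 9.97 RPKM in LI, while the 4641-bp peak over most of the gene had 34.2 and 38.2 RPKM, a log2 ratio of 0.11, and weighting the peaks by length gave 0.14 for the gene.

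Irf1 and Irf9 had intervals that included 0, at 0.079 and -0.26. Irf1, induced strongly by interferon-gamma, was the most densely marked gene of the list per length, at a mean of 40.9 RPKM in spleen against 44.6 RPKM in LI over its peaks, and 98.4% of its body was covered. With a correction for GC content its ratio was -0.086. Irf9 is the DNA-binding part of the complex that recognises the ISRE. Irf7, the main amplifier of type I interferon, had no peak by midpoint (ENSMUSG00000025498.15, chr7:141262706-141266481, minus strand). It was overlapped over 2500 bp by a peak of 9300 bp whose midpoint lies in its neighbour Phrf1, with 34.7 RPKM in spleen against 38.0 RPKM in LI.

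All 6 sensors and RNA-binding effectors were lower in LI, with a median log2 ratio of -0.24. Dhx58 (ENSMUSG00000017830.15, chr11:100694884-100704271, minus strand) encodes LGP2, which tunes the RIG-I-like receptors. It had 63.4 RPKM in spleen against 42.6 RPKM in LI, a log2 ratio of -0.61 (-0.97 to -0.26), with 5 of 5 peaks lower. Taken by its strongest peak, the ratio was -0.12. Ifih1 (ENSMUSG00000026896.14, chr2:62595798-62646255, minus strand) encodes MDA5, the sensor of long double-stranded RNA, and had the largest sum of the group. It had 301.3 RPKM in spleen against 228.4 RPKM in LI over 32 peaks, of which 22 were lower in LI, and a log2 ratio of -0.44 (-0.67 to -0.22). Its strongest peak gave -0.15.

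Zbp1 (ENSMUSG00000027514.14, chr2:173206612-173218923, minus strand), which binds Z-form nucleic acids, had 64.8 RPKM in spleen against 54.4 RPKM in LI, a log2 ratio of -0.30 (-0.48 to -0.11). Ddx58, which encodes RIG-I, had 248.3 and 227.1 RPKM (chr4:40203773-40239828, minus strand). Its interval, -0.35 to 0.00024 around a ratio of -0.17, just included 0. Eif2ak2, the kinase PKR that stops translation on double-stranded RNA, and Adar, which edits it, were at -0.14 and -0.11 with intervals that included 0. Of the 4 peaks of Adar 1 also falls in the overlapping gene Chrnb2. In the strongest peak alone Ddx58 was at 0.014 and Adar at 0.065.

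The OAS, IFIT and Mx genes, the classical antiviral effectors, showed the lowest ratios of the list. Of the 10 genes 9 had peaks, all 9 were lower in LI, 8 had an interval below 0, and the median log2 ratio was -0.91. Their peaks together summed to 781.9 RPKM in spleen against 463.5 RPKM in LI. Per length they were marked at ordinary levels in spleen, with means over their peaks between 12.1 and 15.1 RPKM, against a median of 12.7 RPKM over all protein-coding genes tested.

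Oligoadenylate synthetases make the messenger that activates RNase L on sensing double-stranded RNA. Oas2 (ENSMUSG00000032690.16, chr5:120730333-120749853, minus strand) had 72.2 RPKM in spleen against 23.4 RPKM in LI, a log2 ratio of -1.65 (-2.36 to -0.94), the lowest of the 42 genes. All 6 of its peaks were lower in LI. The peak at its start, 233 bp long, had 14.8 RPKM in spleen against 2.28 RPKM in LI. Averaged over its peaks Oas2 had 3.74 RPKM in LI, above the mean of only 0.276% of all genes tested in that library, whereas its mean in spleen of 12.4 RPKM was above that of 48.3%.

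Oas3 (ENSMUSG00000032661.9, chr5:120753098-120777661, minus strand), the next gene along and the largest sum of the group, had 240.3 RPKM in spleen against 152.6 RPKM in LI, a log2 ratio of -0.70 (-0.94 to -0.46). Of its 17 peaks 15 were lower in LI. One exception was its strongest LI peak, with 15.0 RPKM in spleen against 15.8 RPKM in LI, so that the ratio by the strongest peak was 0.019. In peaks of at least 1 kb, of which it had 3, the ratio was -0.39. Oas1a, another synthetase of the same cluster, had 45.2 and 42.7 RPKM, and its interval included 0.

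The OAS-like genes lie in a separate cluster on the same chromosome. Oasl2 (ENSMUSG00000029561.17, chr5:114896936-114912234, plus strand) had 64.4 RPKM in spleen against 28.8 RPKM in LI, a log2 ratio of -1.19 (-1.76 to -0.63), with 5 of 5 peaks lower. Oasl1 (ENSMUSG00000041827.15, chr5:114923240-114937915, plus strand), which restrains translation of Irf7, had 39.8 RPKM in spleen against 20.03 RPKM in LI, a log2 ratio of -1.02 (-1.76 to -0.28), with 3 of 3 peaks lower. Oasl1 sits next to the 2-fold line: at a pseudocount of 5 RPKM, on the values as deposited or weighted by peak length it was no longer past it. By the strongest peak the ratio was -0.71, with an interval of -1.82 to 0.39.

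IFIT proteins bind viral RNA that lacks a host cap. Ifit2 (ENSMUSG00000045932.12, chr19:34550694-34576419, plus strand) had 67.8 RPKM in spleen against 31.1 RPKM in LI, a log2 ratio of -1.16 (-1.68 to -0.64), with 5 of 5 peaks lower. Its longest peak, over the coding exon, had 18.8 and 11.98 RPKM and a log2 ratio of -0.68, while the 4 shorter peaks ran from -2.23 to -0.62. Weighted by length its ratio was -0.87 and by the strongest peak -0.68, both short of 2-fold. Counting peaks by the nearest transcript start gave -0.89, with an interval of -1.81 to 0.032. Ifit1 (ENSMUSG00000034459.8, chr19:34640871-34650009, plus strand) had 34.4 RPKM in spleen against 20.3 RPKM in LI, a log2 ratio of -0.79 (-1.37 to -0.21), with 3 of 3 peaks lower. Ifit3 (ENSMUSG00000074896.3, chr19:34583531-34588731, plus strand) had no peak, and the nearest was 4004 bp away with 22.6 RPKM in spleen against 16.4 RPKM in LI.

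Mx proteins are GTPases that trap viral components. Mx1 (ENSMUSG00000000386.15, chr16:97447035-97462907, minus strand) had 120.5 RPKM in spleen against 66.1 RPKM in LI, a log2 ratio of -0.91 (-1.27 to -0.55), and 10 of 10 peaks were lower. Mx2 (ENSMUSG00000023341.15, chr16:97535308-97560900, plus strand), annotated as a polymorphic pseudogene, had 97.1 RPKM in spleen against 78.3 RPKM in LI, a log2 ratio of -0.35 (-0.61 to -0.10). The Mx, OAS and IFIT families hold closely related copies, and how reads that match several copies were treated is not given in the sources used here.

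**Figure D3:**
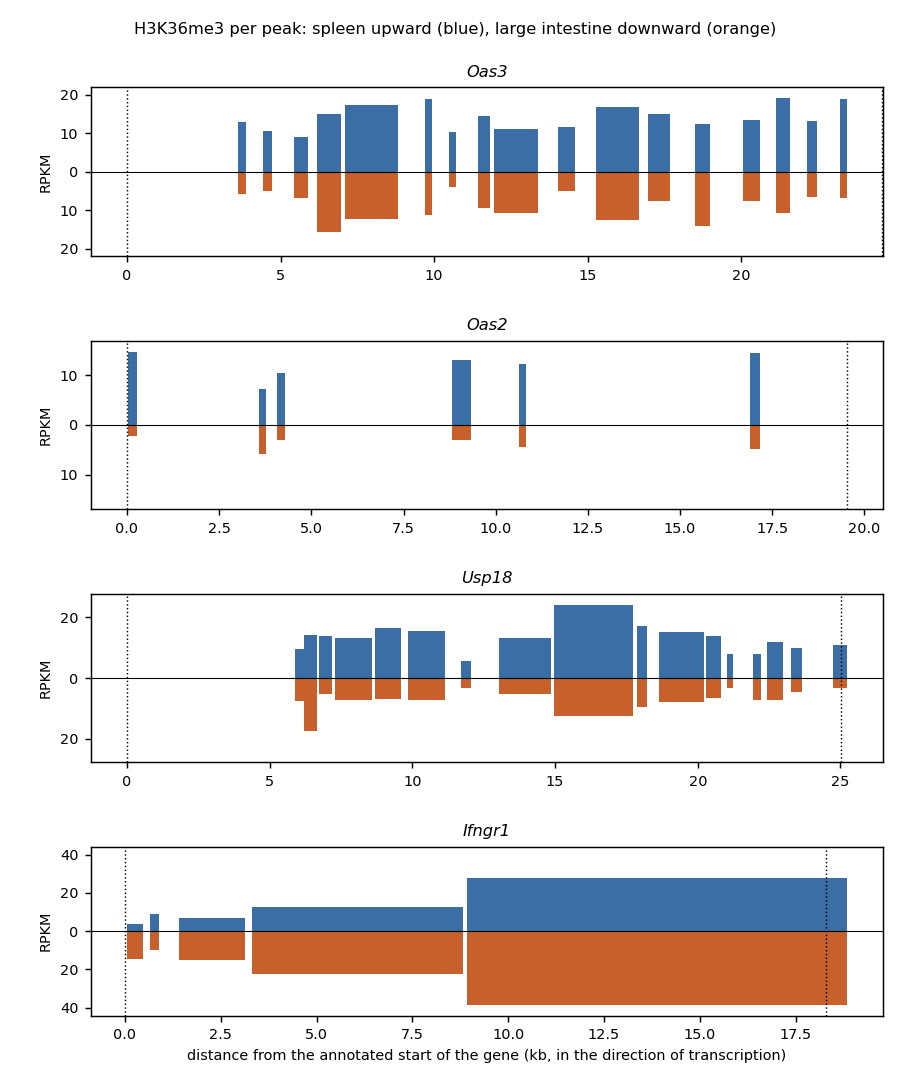
H3K36me3 at each peak of Oas3, Oas2, Usp18 and Ifngr1, plotted in RPKM against distance from the start of the gene in kb, with spleen drawn upward, LI drawn downward and dotted lines at the ends of the annotated body. In Oas2 6 short peaks are all smaller in LI, in Usp18 16 of 17 are, and in Ifngr1 5 peaks covering most of the gene are all taller in LI.

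All 7 guanylate-binding proteins (GBPs) and immunity-related GTPases (IRGs) were lower in LI, though by little. These interferon-gamma-induced GTPases attack the vacuoles of intracellular pathogens. Their ratios ran from -0.24 to -0.020 with a median of -0.19, and 1 interval lay below 0. Gbp7 (ENSMUSG00000040253.15, chr3:142530342-142550149, plus strand), the largest sum, had 129.8 RPKM in spleen against 113.2 RPKM in LI, a log2 ratio of -0.24 (-0.48 to -0.0070), and by its strongest peak alone the ratio was 0.028. Gbp4 (chr5:105115767-105139586, minus strand) had 120.2 and 114.1 RPKM, a log2 ratio of -0.12 (-0.33 to 0.085). All 8 of its peaks also lie in Gbp8 or Gbp9, and with a correction for GC content its ratio was 0.093. Igtp, Gbp3, Gbp2, Ifi47 and Irgm1 had intervals that included 0, with sums of 41.6 to 118.1 RPKM in spleen against 40.8 to 106.5 RPKM in LI. The 4 peaks of Ifi47 are shared with Olfr56, and the 3 of Igtp with Irgm2.

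Among the enzymes of ISG15, ubiquitin and ADP-ribose, Usp18 stood apart. Usp18 (ENSMUSG00000030107.10, chr6:121245906-121270917, plus strand) removes ISG15 from proteins and also blocks the type I interferon receptor. It had 220.1 RPKM in spleen against 122.6 RPKM in LI, a log2 ratio of -0.89 (-1.12 to -0.66), with 16 of 17 peaks lower. Its strongest spleen peak, 2783 bp long in an intron, had 24.2 RPKM in spleen against 12.4 RPKM in LI. The exception was a 423-bp peak at the 5' UTR, with 14.2 and 17.5 RPKM. Unlike Oas2, Usp18 was well covered, with 55.3% of its body in peaks, and in peaks of at least 1 kb its log2 ratio was -1.06. Of the 35 genes that could be measured in such peaks it was the one past 2-fold lower, and Oas2, Oasl1, Oasl2 and Mx1 had no peak of that length.

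Rnf213 (ENSMUSG00000070327.14, chr11:119393100-119487418, plus strand), a giant ubiquitin ligase and the largest sum of this group, had 369.7 RPKM in spleen against 350.7 RPKM in LI, a log2 ratio of -0.12 (-0.22 to -0.021). Parp14 (ENSMUSG00000034422.14, chr16:35832874-35871544, minus strand), an ADP-ribosyltransferase, had 215.6 RPKM in spleen against 197.9 RPKM in LI, a log2 ratio of -0.17 (-0.30 to -0.041), which was 0.0069 with a correction for GC content. Parp9 and its partner Dtx3l, which share a bidirectional promoter, were at -0.094 and 0.078. For Dtx3l (chr16:35926511-35939151, minus strand) the sums were 49.6 and 54.1 RPKM. A 220-bp peak with 4.74 RPKM in spleen against 9.33 RPKM in LI is counted in both genes, and weighted by peak length Dtx3l was at -0.036. Trim25, the ubiquitin ligase that activates RIG-I, was at -0.18, and the intervals of Parp9, Dtx3l and Trim25 included 0. Isg15 itself (ENSMUSG00000035692.6, chr4:156199424-156200818, minus strand), the ubiquitin-like modifier, is a short gene and had no peak, the nearest being 2591 bp away with 2.40 RPKM in spleen against 10.8 RPKM in LI.

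The remaining genes have varied roles, and 4 of the 6 with a ratio were lower in LI. Samhd1 (ENSMUSG00000027639.16, chr2:157097533-157135265, minus strand), which depletes nucleotides that viruses need, had 202.6 RPKM in spleen against 163.5 RPKM in LI, a log2 ratio of -0.35 (-0.49 to -0.22). Xaf1 (ENSMUSG00000040483.15, chr11:72301629-72313733, plus strand), a promoter of apoptosis, had 108.0 RPKM in spleen against 88.7 RPKM in LI, a log2 ratio of -0.33 (-0.56 to -0.10). The nuclear body protein Sp100 (ENSMUSG00000026222.16, chr1:85649988-85709998, plus strand) had the largest sum, 318.3 RPKM in spleen against 273.9 RPKM in LI, a log2 ratio of -0.26 (-0.40 to -0.12).

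Rsad2, which encodes viperin, was at -0.15, the exonuclease Isg20 at 0.13 and Ifi35 at 0.18, all with intervals that included 0. With a correction for GC content Isg20 was at -0.075. Bst2, which encodes the virus tether tetherin, had 1 peak with 10.2 RPKM in spleen against 7.94 RPKM in LI, under the filter.

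The peaks of the list lay where H3K36me3 is usually found. Introns held 326 midpoints (78.4%), coding exons 39, 3' UTRs 24, non-coding exons 21 and 5' UTRs 6, counting the peak of Bst2 as well. The part of the gene downstream of its middle held 58.9% of the signal in spleen and 59.5% in LI, beside 62.2% and 63.1% over all protein-coding genes tested. The genes were more widely covered than most: the median share of the body inside peaks was 62.9%, beside 37.4% over all protein-coding genes.

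Within the list the 4 lowest ratios were those of thinly covered genes. In the 6 genes with under 20% of the body in peaks, namely Oasl1, Oas2, Ifi47, Ifit2, Oasl2 and Rsad2, the median log2 ratio was -1.09 and 4 were over 2-fold lower in LI. Among all 3352 genes with so little coverage, 4.98% were over 2-fold lower. In the 36 genes with at least 20% covered, 30 were lower in LI, the median was -0.19 and 0 were past 2-fold lower. Across the 42 genes the ratio and the covered share had a Pearson r of 0.63 and a Spearman rho of 0.46. Over 9456 protein-coding genes the same values were -0.0081 and 0.026. Genes are not independent replicates, and all points share the same 2 libraries.

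**Figure D4:**
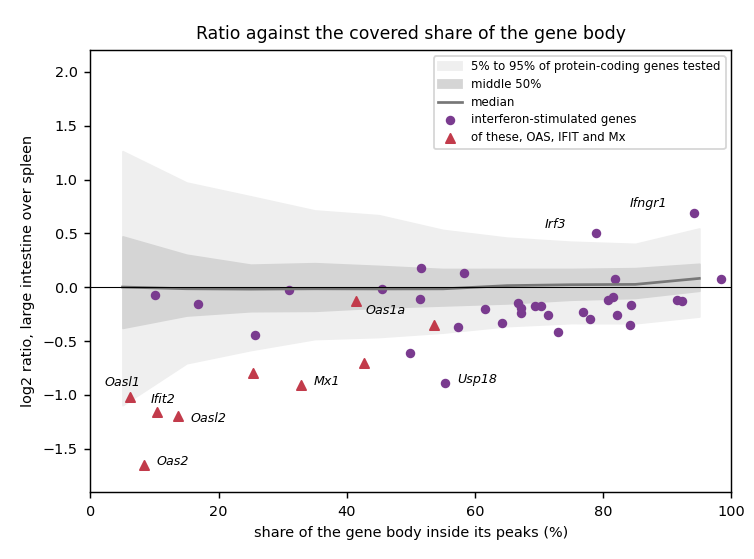
Log2 ratio of LI over spleen against the share of the gene body inside peaks, in percent, for 42 interferon-stimulated genes, over bands holding the middle 50% and 5% to 95% of protein-coding genes and a line at their median in steps of 10 percentage points. Oas2, Oasl2, Ifit2 and Oasl1 lie at the thinly covered end near or below the lower band, while Usp18 lies below it at 55.3% covered. Ifit1, Mx1, Oas3, Dhx58, Ifngr2 and Samhd1, with 25.4% to 84.2% of the body covered, also lie below it.

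GC content moved with the ratio across genes, and less so across the list. Over 9456 protein-coding genes the Pearson r of the ratio with the GC content of the peaks was 0.33 and the Spearman rho 0.42, whereas over the 42 genes they were -0.078 and -0.021. The median GC content was 46.6% for the list and 48.1% for protein-coding genes. With a correction for GC content the median ratio of the list was -0.21, and 34 of 42 genes were below 0, where 53.0% of all genes then were.

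The medians of genes with and without the ISRE core, as printed above, were close. The 9 genes not in the promoter table are in neither group, and their ratios ran from -1.65 for Oas2 to -0.094 for Parp9. The medians therefore do not cover Oas2, Mx1, Usp18 or Dhx58, and a link between the core and the ratio was not tested. All 15 genes with the core and a ratio were lower in LI, from -0.79 for Ifit1 to -0.020 for Irgm1, with a median of -0.18. Of the 18 genes in the promoter table without it 12 were lower, with a median of -0.19. These 18 include Oasl2, Oasl1 and Ifit2, whose windows hold no such letters, and also Ifngr1 and Irf3, the 2 genes with intervals above 0.

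The study's signatures of Treg cells, lists made from expression in other samples, hold some of these genes. The share of all genes that each signature holds was not computed here, so the counts of genes held are a description only. The splenic signature holds 10 of the 46, namely Ifit1, Ifit2, Ifit3, Usp18, Ddx58, Dhx58, Dtx3l, Xaf1, Rnf213 and Sp100. Of the 9 with a ratio 8 were lower in LI, 7 intervals were below 0, and the median was -0.33. The study reports more H3K36me3 in spleen than in intestinal Treg cells over its splenic signature genes as a whole. The share lower in LI among all genes of that signature was not computed here, so whether the count is particular to interferon-stimulated genes was not tested. The colonic signature holds 1, Ifngr1, which was higher in LI. Outside both signatures 28 of 32 genes were lower in LI, with a median of -0.19 and 13 intervals below 0. The signature of RORgt+ Treg cells, an intestinal subset, holds Mx1, Oasl2 and Gbp4, all lower in LI, and that of ST2+ Treg cells holds 0 of the 46.

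Other genes of the interferon pathway, from a separate list of 50, were less one-sided. Of these 49 were annotated, 42 had a peak and 41 had a ratio. Of the 41, 25 were lower and 16 higher in LI, where 49.3% of all genes tested were lower. The median log2 ratio was -0.094. In either direction 0 were past 2-fold, where 2.04% of all genes were lower and 3.42% higher by that much. Tgtp1, under the filter, had 14.6 RPKM in spleen against 3.52 RPKM in LI. The counting interval was below 0 in 13 of the 41, against 15.2% of all genes, and above 0 in 6, against 17.9%. The upstream part was divided between the tissues. Jak1, the kinase that all interferon receptors use, was at -0.35, but Jak2 and Tyk2 were at 0.31 and 0.37. Stat2, a member of the ISRE-binding complex, had nearly equal sums, 107.2 and 108.2 RPKM, with a ratio of -0.032.

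Higher in LI were also Irf4 (0.40) and Irf5 (0.46) and the sensor adaptors Mavs (0.35) and Ticam1 (0.74). Lower were the phosphatase Ptpn6 (-0.42) and the kinase Ikbke (-0.53). Among the interferon-inducible p200 genes the interval was below 0 for Mndal (-0.75), Ifi206 (-0.68) and Ifi203 (-0.60), and Ifi204 had no peak. Among the Schlafen genes it was below 0 for Slfn1 (-0.86), Slfn5 (-0.46) and Slfn8 (-0.30), while Slfn2 was at 0.13 with an interval that included 0. Of the GBPs in this second list it was below 0 for Gbp5 (-0.20), and Gbp6 (0.014), Gbp8 (0.00031) and Gbp9 (-0.14) had intervals that included 0. Phf11b (-0.40), Herc6 (-0.27) and Nlrc5 (-0.21) also had intervals below 0. Mndal, the largest sum of these p200 genes, had 319.9 RPKM in spleen against 196.7 RPKM in LI.

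**Figure D5:**
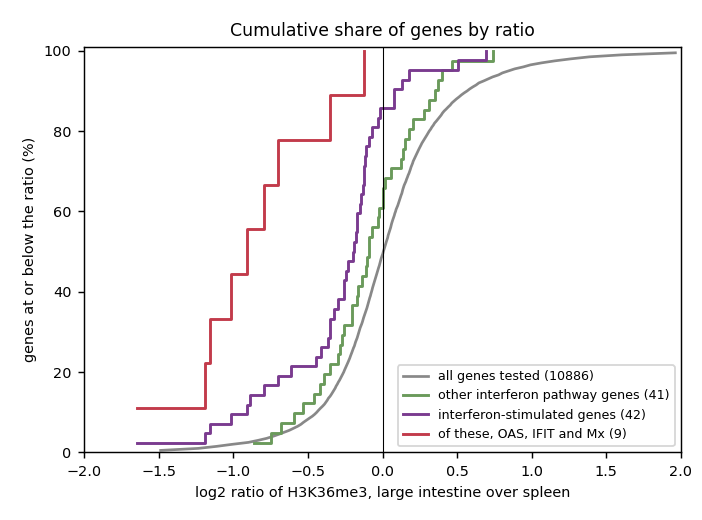
Cumulative share of genes, in percent, by log2 ratio of LI over spleen, for all 10886 genes tested, 41 other interferon pathway genes, 42 interferon-stimulated genes and the 9 OAS, IFIT and Mx genes among them. At a ratio of 0 the curve of all genes stands at 49.3% and that of the interferon-stimulated genes at 85.7%.

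Both libraries carried H3K36me3 over genes that define Treg cells. Taking bins of 20 bp, a size that the study's methods do not give, the values imply 29600000 mapped reads in spleen and 38100000 in LI. In such a bin 1 read was worth 1.69 and 1.31 RPKM. Low peaks such as those of Oas2 in LI therefore rest on few reads. All 7 Treg and T cell markers had peaks, with Foxp3 at 132.5 RPKM in spleen against 156.3 RPKM in LI. Their ratios went both ways: Ikzf2 (-0.55) and Cd3e (-0.41) had intervals below 0, Tnfrsf18 (0.80) and Ctla4 (0.59) had intervals above 0, and those of Foxp3, Il2ra and Cd4 included 0. Of 9 markers of epithelium 3 had peaks (Epcam, Vil1 and Lgals4), summing to 55.1 RPKM in spleen against 93.8 RPKM in LI. Epcam had a log2 ratio of 0.84 (0.23 to 1.46). Vil1, under the filter, and Lgals4, with an interval that included 0, were also higher in LI. Of 6 B cell markers 3 did, summing to 60.2 and 53.4 RPKM, with Ms4a1 without a peak. Cd79a was lower in LI, with 47.2 and 29.8 RPKM and a log2 ratio of -0.70 (-1.32 to -0.076), while Cd79b, with 8.96 and 13.7 RPKM, and Pax5, with 4.05 and 9.91 RPKM, were higher. Of 7 myeloid markers 2 did, at 29.7 and 31.3 RPKM, and of 2 plasmacytoid dendritic cell markers 0 did. The part of other cells in the ratios was not tested.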

How the data were processed

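H3K36me3 ChIP-seq libraries of spleen and LI Treg cells were single-end, 75 nt. According to the submitters' processing notes and the methods, the authors used FastQC and Bowtie2 (mm10), MACS2 against the input and bedtools to merge peaks, and averaged RPKM coverage over each merged peak with deepTools. Although its label speaks of raw counts, the deposited table holds these RPKM values: multiplied by peak length they were whole multiples of a single step (tolerance 0.02) in 100% of 46841 spleen and 66066 LI peaks checked.

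Chromosome lengths were compared with GRCm38 (0 of 21 were exceeded by a peak). By midpoint, peaks were placed in GENCODE M21 gene bodies and their RPKM was summed per gene. Log2 ratios used a pseudocount of 0.5 RPKM, a minimum of 20 RPKM over both libraries and subtraction of the log2 ratio of library totals (0.046). On this log2(value + pseudocount) scale differences of low genes come out too small. Counting intervals (95%) took each read as covering 200 bp and as an independent molecule. A call is a difference over 2-fold. The scripts were tested on simulated data. Genes are given in full where the interval leaves out 0 or the ratio is past 2-fold, where the sum is the largest of a role group, or where a signature holds them. Python 3.11.15, numpy 2.4.6, pandas 2.3.3, scipy 1.17.1 and matplotlib 3.10.9 were used. Members and lists were chosen with earlier results of these data known. Alternatives were other scalings, pseudocounts, filters, weightings, peak assignments, a GC correction and longer peaks. Values of some genes of the pathway and marker lists are not reported here.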

Additional observations from a re-analysis of the deposited data

How the results depend on the processing

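Of 446 ratios of single genes recomputed under the alternatives, 424 stayed within the counting error of the value reported, and 22 moved past it. The sign changed in 21 of the 446, in 15 genes. In 3 of these the reported interval had left out 0: Oas3 (0.019) and Gbp7 (0.028) by the strongest peak, and Parp14 (0.0069) with a correction for GC content. Of 182 summary values 165 were close to those reported and 17 moved. By the strongest peak the median of the list was -0.12, 1 gene was over 2-fold lower in LI and 13 intervals were below 0. Weighted by length, 2 genes were over 2-fold lower. With a filter at 200 RPKM 16 of 16 genes were below 0, 0 were over 2-fold lower and 9 intervals were below 0. Of all 4323 genes at that filter 54.5% were below 0, 39 (0.902%) were over 2-fold lower and 70 were over 2-fold higher. In peaks of at least 1 kb, an alternative chosen after seeing the data, 1 of the 35 genes with such a peak was over 2-fold lower (Oas2, Oasl1 and Oasl2 had none). The sensors had a median of -0.10. Of the 7846 genes tested in such peaks 40 (0.510%) were over 2-fold lower and 120 higher. Thus 25% of the genes past 2-fold were lower, where 37.4% were in the values reported. By the nearest transcript start 1 gene was over 2-fold higher (Gbp2, 1.58), Ifit3 was among those over 2-fold lower and Ifit2 no longer was. With no filter 459 of all 11946 genes were over 2-fold lower and 623 higher. At a pseudocount of 5 RPKM 145 of 10886 genes were over 2-fold lower, where the values reported were 222 lower and 372 higher. The cause was not tested. Over all alternatives the median of the list ran from -0.21 to -0.12, and between 69.0% and 100% of its genes were below 0, beside 43.3% to 54.5% of all genes. No paired analysis was possible because each tissue had 1 library. With 29600000 and 38100000 reads, short peaks rest on few reads, and the depth limits the ratio of thinly covered genes such as Oas2 most.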
